A study of Mus musculus with 4 samples.

Results

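Integrins and laminins are the receptors and the ligands through which cells hold on to the extracellular matrix. An integrin is a pair of an alpha and a beta subunit that spans the plasma membrane, binds matrix proteins outside the cell and is tied to the actin cytoskeleton inside by talin, kindlin and their partners. A laminin is a cross-shaped trimer of an alpha, a beta and a gamma chain, and laminins are the main adhesive proteins of basement membranes, including the one that lies under astrocyte endfeet around brain vessels. The genes described here are among those that the array names *Itga* or *Itgb* followed by a number, or *Lama*, *Lamb* or *Lamc* followed by a number. They are 29 genes of the 29676 gene names on the array, 19 integrin and 10 laminin genes, read by 39 probes, of which 19 genes had 1 probe and 10 had 2. Integrin subunits whose symbols carry a letter in place of the number, such as *Itgav*, are given apart.

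The cells were astrocyte-enriched cultures (AECs), prepared from cerebral cortices of newborn ICR mouse pups of either sex. They started as mixed glial cultures, and microglia were depleted with PLX3397 (pexidartinib), which blocks the receptor CSF1R that microglia need to survive, in both groups alike. Total RNA came from 2 wells left untreated and from 2 wells kept for 15 h under oxygen–glucose deprivation (OGD), that is, in medium without glucose under hypoxia, and per the methods each well was seeded from an independent culture. OGD was compared with no treatment to ask how astrocytes respond to hypoxic and ischemic stress. The cultures also hold oligodendrocyte lineage cells, and fewer cells of a type and less RNA per cell cannot be told apart in RNA from whole wells.

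Each sample was labeled with Cy3 and read on 1 array, and all 4 arrays lay on 1 slide, so that expression is an intensity, the processed signal of a 60-base probe. Between 64.5% and 73.7% of spots were well above background on an array, with the lower shares after OGD. The 75th percentile of the processed signal was 2135 and 2164 without treatment and 887 and 776 under OGD, which is −1.37 as a log2 difference. Fold changes here are relative to that percentile, as in the methods. RNA of known amount that is added to each labeling reaction (spike-in) differed by −0.085 on average over 9 probes, which ranged from −0.75 to 0.28, and scaling on it moved the median log2 fold change of all 21061 genes tested from 0.16 to −1.13. Each direction below is therefore relative to the 75th percentile, and the value under spike-in scaling is given with the genes on which the results turn. All 10 astrocyte markers listed, among them *Gfap* and *Aldh1l1*, were well above background on all 4 arrays, as were 6 of 7 oligodendrocyte lineage markers, 4 of 5 neuronal markers, 5 of 6 mural and fibroblast markers and 6 of 8 microglial and leukocyte markers, and 3 of 6 endothelial markers (*Kdr*, *Cdh5* and *Pecam1*), whereas the endothelial genes *Cldn5*, *Tek* and *Emcn* were not on any array. Of the 10 astrocyte markers 6 were higher and 1, *Sox9*, was lower (−1.52) relative to the 75th percentile, beside 37.1% and 27.8% of all genes. Their median log2 fold change was 0.67. None of them was higher and 8 were lower under spike-in scaling, where 809 of all 21061 genes were higher and 17543 lower. Their summed signal, in multiples of the 75th percentile, was 168 and 149 without treatment and 228 and 233 under OGD, and its part in the members' values was not tested.

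The probes on which the main results turn are shown here with the part of the transcript they read. *Itgb1* encodes the beta 1 subunit, the partner of the largest number of alpha subunits, and its 2 probes are printed 5′ to 3′. The 3′ probe lies at chr8:131250081-131255976 (mm9, plus strand) and spans an intron. It reads the cytoplasmic tail, and the capitals mark the codons of the 2 NPxY motifs, the docking sites for talin and kindlin. The 5′ probe lies at chr8:131246349-131246408.
Itgb1 3′ probe: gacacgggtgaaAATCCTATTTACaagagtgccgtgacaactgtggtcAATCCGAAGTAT
Itgb1 5′ probe: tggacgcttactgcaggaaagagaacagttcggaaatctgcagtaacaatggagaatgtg
The probes of *Itga1* and *Itga6* are shown because the probes of these genes moved apart after OGD. Both *Itga1* probes span introns on the minus strand, the 5′ probe at chr13:115821387-115825525 and the 3′ probe at chr13:115756765-115758419. Of the *Itga6* probes the first 30 bases are given, the 5′ probe lying at chr2:71690633-71690692 and the 3′ probe at chr2:71694756-71694815 on the plus strand.
Itga1 5′ probe: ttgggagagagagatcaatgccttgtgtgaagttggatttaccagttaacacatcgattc
Itga1 3′ probe: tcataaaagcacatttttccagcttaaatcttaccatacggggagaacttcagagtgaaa
Itga6 5′ probe: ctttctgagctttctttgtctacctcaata
Itga6 3′ probe: gagaatgagaacctgggaggtcttgttgtt

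Of the 29 genes, 28 had a probe that stood well above background on the 2 arrays of either group and were tested with limma, each by its brightest probe. After OGD, 13 were higher and 5 lower relative to the 75th percentile at an adjusted p under 0.05, and 10 did not pass. The higher genes were the beta subunits *Itgb1*, *Itgb2*, *Itgb3*, *Itgb7* and *Itgb8*, the alpha subunits *Itga2*, *Itga5*, *Itga6*, *Itga7* and *Itga11*, and the laminin chains *Lama2*, *Lama4* and *Lamc1*. The lower genes were *Itga1*, *Itga4*, *Itga9*, *Itga10* and *Lamb3*, of which *Lamb3* was tested only through the untreated arrays. With only probes well above background on all 4 arrays, 16 were higher and 4 lower, *Itga8*, *Lamb1* and *Lamb2* being gained. Of all genes tested, 37.1% were higher and 27.8% lower by the same rule, against 46.4% and 17.9% of the 28. The median log2 fold change of the 28 was 0.45, against 0.16 over all genes. A fold over 2 was passed by 6 higher genes (*Itgb1*, *Itgb3*, *Itga5*, *Itga11*, *Lama2* and *Itgb8*) and 2 lower genes (*Itga10* and *Itga9*), with a background of 12.7% higher and 15.0% lower, and none of the 28 passed the 10-fold limit of the methods in either direction, which 1.27% of all genes did. Under spike-in scaling 2 of the 28, *Itgb1* and *Itgb3*, were higher and 20 lower, and the median of the 28 was −0.83. Of all 21061 genes tested, 809 were higher and 17543 lower under that scaling, with a median of −1.13. The members *Itga5*, *Itga11*, *Itgb8*, *Lama2*, *Lamb1* and *Lamc3* did not pass under it in either direction. With normexp background correction 17 were higher and 3 lower, and with quantile normalization 11 and 7. The median of all genes tested moved too, to 0.51 with normexp (71.2% of genes above 0) and −0.024 with quantile normalization (48.7% above 0). Before any scaling, 30 of the 35 tested probes of the members had a lower signal on both OGD arrays than on both untreated arrays, 3 had a higher one, and 2 overlapped. The share over all probes was not computed, and the arrays' 75th percentile itself differed by −1.37 (log2) after OGD. With 2 arrays a group the smallest exact two-sided permutation p for a single gene is 0.333, so that the calls rest on the spread that limma shares across probes. Without untreated replicate 1 the count of higher genes was 8, and *Itga2*, *Itga4*, *Itga5*, *Itga6*, *Itgb2* and *Lama4* were no longer past the limit, at adjusted p between 0.0511 and 0.110. Without untreated replicate 2 the counts were 7 higher and 3 lower, with *Itga1* and *Itgb7* lost as well and adjusted p of the 8 lost genes between 0.0507 and 0.134. The counts without OGD replicate 1 were 13 and 6, with *Itgb7* (adjusted p = 0.0642) lost and *Lama1* (adjusted p = 0.0384) and *Lamb1* (adjusted p = 0.0287) gained. They were 15 and 5 without OGD replicate 2, with *Lamb1* (adjusted p = 0.00584) and *Lamc3* (adjusted p = 0.0116) gained.

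**Figure D1:**
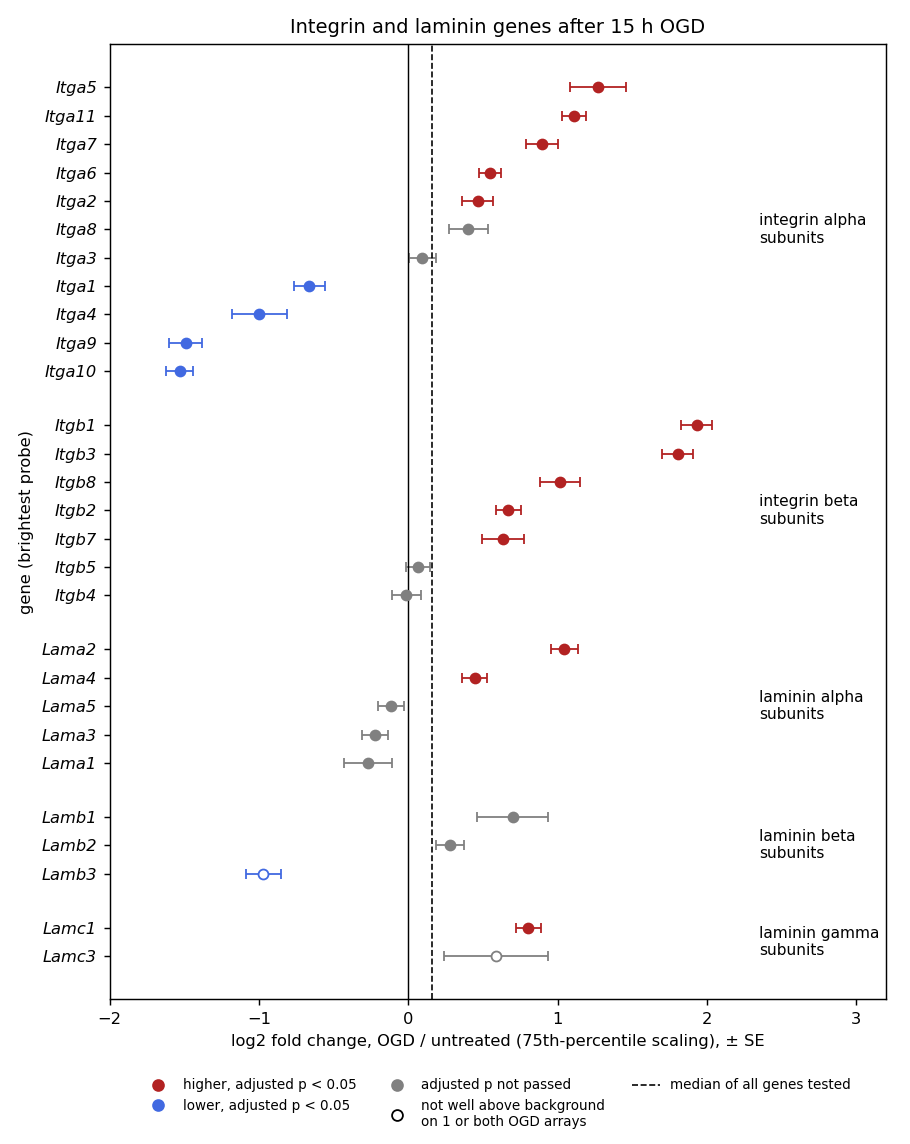
Log2 fold change after 15 h of OGD for the 28 tested integrin and laminin genes (brightest probe of each, 2 arrays a group), relative to each array's 75th percentile, with the standard error of the limma fit as bars. Colors mark the adjusted p, open points genes not well above background on 1 or both OGD arrays, and the dashed line the median of all genes tested, 0.16; values run from −1.53 for *Itga10* to 1.93 for *Itgb1*, and spike-in scaling moves all points to the left by the same amount, so that only *Itgb1* and *Itgb3* stay above 0.

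Of the 28 tested genes, *Itgb1* and *Itgb3* had the largest log2 fold changes. *Itgb1* rose and was higher under both scalings. The signal of its 3′ probe was 8352 and 9111 without treatment and 12963 and 12736 under OGD, so that both OGD arrays lay above both untreated arrays even before scaling. Its log2 fold change was 1.93 ± 0.103 (SE), a 3.82-fold increase, with an adjusted p of 0.00102 (limma), and 0.64 under spike-in scaling, beside the spread of −0.75 to 0.28 among the spike-in probes. The 5′ probe read 1353 and 1330 without treatment and 1569 and 1083 under OGD. These signals overlapped, and its log2 fold change was 1.33 ± 0.145 (adjusted p = 0.00347 with limma) relative to the 75th percentile and 0.044 under spike-in scaling.

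*Itgb3* encodes the beta 3 subunit, which pairs with alpha v and, in platelets, with alpha IIb. Its 3′ probe read 274 and 302 without treatment and 390 and 384 under OGD. The 5′ probe read 25.7 and 21.2 and then 79.1 and 68.8. Both probes were brighter on both OGD arrays before scaling. The log2 fold change was 1.80 ± 0.106 (adjusted p = 0.00117 with limma) for the 3′ probe, by which the gene is counted, and 3.04 ± 0.130 for the 5′ probe, an 8.20-fold increase (adjusted p = 0.000809). Under spike-in scaling these were 0.51 and 1.75. With normexp background correction, which treats dim signals differently, the 5′ probe was at 1.87 and the 3′ probe at 1.66.

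*Itgb8* encodes the beta 8 subunit, which pairs with alpha v and, on astrocytes, is known for activating latent transforming growth factor-beta. It read 512 and 566 without treatment and 407 and 434 under OGD, lower after OGD before scaling and higher relative to the 75th percentile. It was at a log2 fold change of 1.02 ± 0.134 (adjusted p = 0.00547 with limma), and −0.27 under spike-in scaling, where it did not pass (adjusted p = 0.129). By the methods' unpaired test on the same values its adjusted p was 0.0502. *Itgb5*, another partner of alpha v, did not pass, at a log2 fold change of 0.063 ± 0.0819 (adjusted p = 0.53 with limma), but passed as lower with quantile normalization. It read 21921 and 22129 against 9180 and 8599. *Itgb6*, an epithelial partner of alpha v, was not tested: its brighter probe was well above background on 1 untreated array and on no other.

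*Itgb2*, the beta subunit of leukocyte integrins, and *Itgb7*, that of lymphocyte integrins, were dim and rose by 0.67 ± 0.0840 and 0.63 ± 0.140 relative to the 75th percentile, and turned to −0.62 and −0.65 under spike-in scaling. The call of *Itgb7* was lost by the methods' unpaired test (adjusted p = 0.101) and with a trended and robust prior in limma (adjusted p = 0.0559). *Itgb2* read 42.0 and 41.9 on the untreated arrays against 26.5 and 25.0, and *Itgb7* 21.5 and 17.8 against 13.2 and 10.4. Of the 8 microglial and leukocyte markers, 3 were higher (*Cd68*, *Csf1r* at a log2 fold change of 1.14 and *Aif1* at 1.03) and 1 lower (*Tmem119*, at −0.88) by the adjusted p, that is 37.5% higher beside 37.1% of all genes. Under spike-in scaling 1 of the 8, *Cd68*, was higher and 5 were lower, beside 809 higher and 17543 lower of all 21061 genes. *Csf1r* was then at −0.15 and *Aif1* at −0.26. The summed signal of the 8 before scaling was 1671 and 1717 without treatment and 4616 and 4068 under OGD, most of it from *Cd68*, a lysosomal protein of macrophages, which read 1157 and 1213 and then 4301 and 3778. *Ptprc*, the defining leukocyte gene, read 10.5 and 11.7 against 4.21 and 7.11 and did not pass, at a log2 fold change of 0.36 (adjusted p = 0.419 with limma). The part of these cells in the values of *Itgb2* and *Itgb7* was not tested. *Itgb4*, the partner of alpha 6 in hemidesmosomes, did not pass at −0.014 ± 0.0980 (adjusted p = 0.909).

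**Figure D2:**
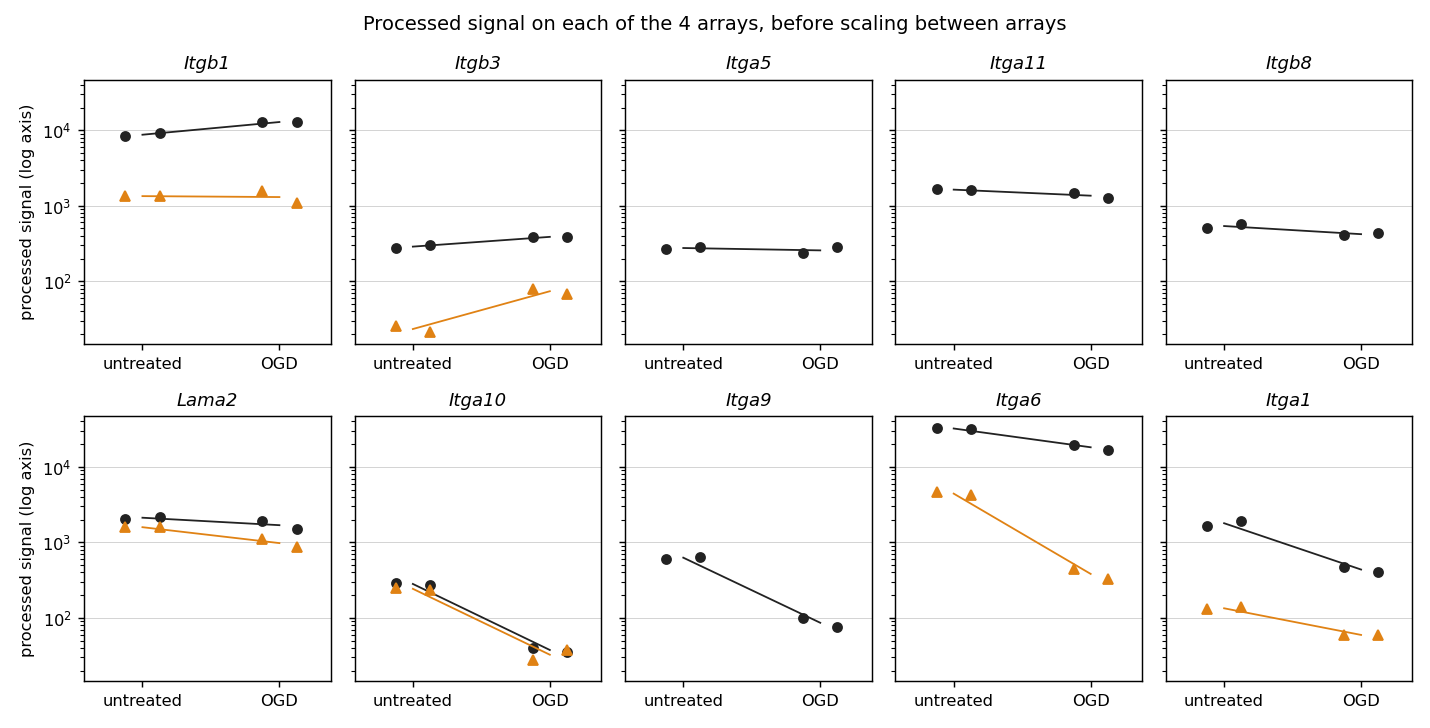
Processed signal, on a log axis and before any scaling between arrays, of 10 genes on each of the 4 arrays: those past the adjusted p with a fold over 2, and *Itga6* and *Itga1*, whose probes moved apart. Black circles are the brighter probe of a gene and orange triangles the dimmer one, each line joins the geometric means of the groups, and the 3 probes with higher signals on both OGD arrays are the brighter one of *Itgb1* and both of *Itgb3*.

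The alpha subunits decide which matrix protein an integrin binds. Of the 4 collagen-binding subunits, *Itga11* and *Itga2* were higher and *Itga10* and *Itga1* lower relative to the 75th percentile. None of the 4 was higher under spike-in scaling, where 809 of all 21061 genes were. *Itga11*, a collagen receptor of fibroblasts and other mesenchymal cells, read 1667 and 1603 without treatment and 1476 and 1252 under OGD. The log2 fold change was 1.11 ± 0.0806 (adjusted p = 0.0016 with limma), and −0.18 under spike-in scaling (adjusted p = 0.161). *Itga10*, best known from cartilage, read 293 and 271 without treatment and 40.5 and 35.0 under OGD. Its log2 fold change was −1.53 ± 0.0883, a 2.89-fold decrease (adjusted p = 0.00113 with limma), and −2.82 under spike-in scaling. Its other probe overlaps the first by 54 bases and read 251 and 236 against 28.0 and 37.9, so that it is not a separate reading. With normexp background correction the decrease of *Itga10* was smaller, at −0.58. *Itga2* was dim, at 37.2 and 36.7 against 22.4 and 17.3, and its log2 fold change was 0.46 ± 0.101 (adjusted p = 0.0204). It turned to −0.82 under spike-in scaling, and its adjusted p was 0.0739 by the methods' unpaired test and 0.0641 with the trended and robust prior.

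*Itga1*, which pairs with beta 1 as a receptor for collagen type IV and laminin, fell by its brighter probe and not by the other. The 3′ probe read 1669 and 1935 without treatment and 477 and 402 under OGD, at a log2 fold change of −0.66 ± 0.104 (adjusted p = 0.00829 with limma). The 5′ probe read 130 and 139 against 59.5 and 59.7, at 0.20 ± 0.106 (adjusted p = 0.169). Both probes were dimmer on both OGD arrays before scaling, and at −1.95 and −1.09 under spike-in scaling, so that they differ in size and, relative to the 75th percentile, in sign. Without untreated replicate 2 the adjusted p of the 3′ probe was 0.0664, and the mean over both probes was −0.23 and did not pass (adjusted p = 0.0929).

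Of the 3 laminin-binding subunits, *Itga6* and *Itga7* were higher relative to the 75th percentile by the probe counted. All 3 were lower under spike-in scaling, where 17543 of all 21061 genes were. *Itga7* read 18615 and 19743 without treatment and 13740 and 13794 under OGD, at a log2 fold change of 0.90 ± 0.105 (adjusted p = 0.00414 with limma), and −0.39 under spike-in scaling. *Itga3* did not pass, at 0.094 ± 0.0915 (adjusted p = 0.41). *Itga6* had the largest disagreement among the 7 genes with both probes tested. Its 3′ probe read 32342 and 32255 without treatment and 19756 and 16795 under OGD, a log2 fold change of 0.55 ± 0.0759 (adjusted p = 0.00619 with limma). Its 5′ probe read 4601 and 4273 against 446 and 329, a 4.47-fold decrease at −2.16 ± 0.124 (adjusted p = 0.00112). The files assign the 5′ probe to a different transcript record of *Itga6* than the 3′ probe. Under spike-in scaling both were lower, at −0.74 for the 3′ and −3.45 for the 5′ probe. With quantile normalization the 3′ probe was at −0.083 (adjusted p = 0.422), and the mean over both probes was −0.81 (adjusted p = 0.00417), so that the direction of *Itga6* depends on the probe read.

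*Itga5* encodes the alpha 5 subunit, which together with beta 1 forms the fibronectin receptor and binds the RGD sequence. It read 267 and 285 without treatment and 233 and 282 under OGD, overlapping before scaling. It was at a log2 fold change of 1.27 ± 0.186, a 2.41-fold increase relative to the 75th percentile (adjusted p = 0.00704 with limma), and −0.019 under spike-in scaling (adjusted p = 0.921). Its call was lost without untreated replicate 1 (adjusted p = 0.0519), without untreated replicate 2 (adjusted p = 0.0507) and by the methods' unpaired test (adjusted p = 0.0644). *Itga8*, the other RGD-binding subunit among the members, did not pass at 0.40 ± 0.131 (adjusted p = 0.0587), but did with normexp background correction, at 0.63 (adjusted p = 0.000784), with the trended and robust prior (adjusted p = 0.0485) and with the filter on all 4 arrays (adjusted p = 0.0424).

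The related subunits *Itga4* and *Itga9*, which bind the vascular cell adhesion molecule, were both lower. *Itga9* read 609 and 649 without treatment and 99.2 and 75.1 under OGD, with no overlap. The log2 fold change was −1.49 ± 0.109, a 2.81-fold decrease (adjusted p = 0.00161 with limma), −2.78 under spike-in scaling and −1.02 with normexp background correction. *Itga4* read 118 and 128 against 29.7 and 18.9 by its brighter probe, and its other probe was not well above background on any array. Its log2 fold change was −0.999 ± 0.183 (adjusted p = 0.0128 with limma). This decrease was lost with normexp background correction, at 0.16 (adjusted p = 0.141), by the methods' unpaired test (adjusted p = 0.087) and without untreated replicate 1 or 2, at adjusted p of 0.0654 and 0.0816. Some markers of other cells were lower in the same wells as *Itga4*, *Itga9* and *Itga10*. Of the 7 oligodendrocyte lineage markers 4 were lower and 2 higher, against 27.8% and 37.1% of all genes, with *Olig2* at a log2 fold change of −2.50 and *Pdgfra* at −1.27, and their summed signal, in multiples of each array's 75th percentile, was 24.3 and 24.5 without treatment and 19.5 and 18.2 under OGD. Of the 6 mural and fibroblast markers 1 was lower and 1 higher, both of them known as pericyte genes. *Pdgfrb* fell 5.35-fold, at −2.42, and *Rgs5* was at 0.38 (adjusted p = 0.0399 with limma), whereas the summed signal of 5 of them, in the same multiples, overlapped between the groups, at 11.9 and 10.1 against 10.3 and 7.95. The part of these cells in the integrin values was not tested.

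RefSeq promoters of GRCm38.p6 were given for 19 of the 29 genes, in 22 windows of 250 bases before the transcript start. The core letters ACGTG of the hypoxia response element, searched on both strands, were in 1 of the 22 windows, that of *Itga9*, and in 16.6% of all 32851 windows. The promoters of *Itgb1* and *Itga5*, the genes of the fibronectin receptor, are printed beside that of *Itga9*, with the matched letters in capitals. They lie at chr8:128685404-128685653 (plus strand), chr15:103366792-103367041 (minus strand) and chr9:118711442-118711691 (plus strand).
Itgb1 promoter: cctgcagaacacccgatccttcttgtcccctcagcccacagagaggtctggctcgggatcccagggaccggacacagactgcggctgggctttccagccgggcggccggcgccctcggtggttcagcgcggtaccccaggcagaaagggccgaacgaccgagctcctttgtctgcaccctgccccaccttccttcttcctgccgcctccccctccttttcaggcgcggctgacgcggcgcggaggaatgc
Itga5 promoter: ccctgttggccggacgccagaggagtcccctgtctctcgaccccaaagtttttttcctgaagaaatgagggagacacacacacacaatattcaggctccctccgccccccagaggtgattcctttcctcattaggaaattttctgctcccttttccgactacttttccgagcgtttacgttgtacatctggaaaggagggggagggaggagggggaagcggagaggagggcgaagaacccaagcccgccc
Itga9 promoter: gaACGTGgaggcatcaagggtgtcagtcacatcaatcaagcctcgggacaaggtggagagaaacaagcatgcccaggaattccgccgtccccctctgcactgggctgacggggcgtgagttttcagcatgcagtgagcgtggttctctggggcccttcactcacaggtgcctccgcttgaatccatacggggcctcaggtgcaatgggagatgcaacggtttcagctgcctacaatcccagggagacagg
A match or its absence in such a window says nothing of whether a factor binds there.

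Of the 10 laminin genes, 3 were higher and 1 lower relative to the 75th percentile, which is 30% and 10% beside 37.1% and 27.8% of all genes. None was higher and 7 were lower under spike-in scaling, where 809 of all 21061 genes were higher and 17543 lower. Among the alpha chains, *Lama2*, whose chain is lost in a congenital muscular dystrophy and which astrocytes deposit around vessels, read 2063 and 2190 without treatment and 1898 and 1510 under OGD. It was at a log2 fold change of 1.04 ± 0.0923 (adjusted p = 0.00224 with limma), and −0.24 under spike-in scaling (adjusted p = 0.125). A 2nd probe that starts 126 bases further 3′ read 1601 and 1584 against 1110 and 866, at 0.67 ± 0.0959 (adjusted p = 0.00661). *Lama4*, a chain of vascular laminins, read 625 and 642 against 370 and 299, and rose by 0.44 ± 0.0853 (adjusted p = 0.0145), with −0.84 under spike-in scaling. *Lama1*, the alpha chain of early basement membranes, was at −0.27 ± 0.160 and *Lama5*, a widely expressed chain, at −0.12 ± 0.0873, and neither passed, although *Lama5* did with quantile normalization, at −0.61 (adjusted p = 0.00777). *Lama3*, the alpha chain of epithelial laminin, was at −0.23 ± 0.0859 by its brighter probe (adjusted p = 0.0859), whereas a probe that starts 391 bases further 3′ was at −0.72 ± 0.131 (adjusted p = 0.0125). With normexp background correction the brighter *Lama3* probe was at 0.17 and the other at 0.043, so that neither was lower. The mean over both *Lama3* probes was −0.47 (adjusted p = 0.0215).

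Among the beta and gamma chains, *Lamc1*, the gamma chain of most laminins, read 26475 and 26920 without treatment and 19916 and 16246 under OGD. The log2 fold change was 0.80 ± 0.0826 (adjusted p = 0.00305 with limma), −0.48 under spike-in scaling and 0.20 with quantile normalization, where it did not pass (adjusted p = 0.111). *Lamb1*, the partner of *Lamc1* in most laminins, had OGD arrays that lay far apart, at 2808 and 1598 against 3334 and 3429 untreated, and it did not pass, at 0.70 ± 0.236 (adjusted p = 0.0642). *Lamb2* was at 0.28 ± 0.0914 (adjusted p = 0.0595) and *Lamc3*, well above background on 1 of the OGD arrays, at 0.59 ± 0.348 (adjusted p = 0.209). *Lamb1* (adjusted p = 0.00792) and *Lamc3* (adjusted p = 2.56e-05) passed with normexp background correction, and with the trended and robust prior *Lamb1* (adjusted p = 0.033) and *Lamb2* (adjusted p = 0.0199). The signals of *Lamc3*, 16.3 and 14.3 untreated and 13.0 and 6.02 under OGD, all lay below the normexp offset of 50. *Lamb3*, the beta chain of epithelial laminin, read 19.3 and 17.4 on the untreated arrays and was not well above background after OGD, at 3.61 and 3.60. It was at least 1.06-fold lower, a bound against the lowest signals well above background on the OGD arrays, with an adjusted p of 0.00447 from limma. Since it was kept only through the group in which it was brighter, this p is no support for a decrease. The direction of *Lamb3* turned with normexp background correction, to 0.96, but the offset of 50 exceeds all of its signals, so that this value cannot decide its direction.

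Of the 10 genes with 2 probes, 7 had both tested, and the log2 ratio of the 2 probes on 1 array does not change with a factor applied to a whole array. For *Itga6* the 3′ probe exceeded the 5′ probe by 2.81 and 2.92 on the untreated arrays and by 5.47 and 5.67 after OGD. For *Itgb3* the same log2 ratio was 3.41 and 3.84 and then 2.30 and 2.48, and for *Itga1* it was 3.68 and 3.80 and then 3.0 and 2.75. Thus the 3′ probe gained on the 5′ probe in *Itga6* and lost in *Itgb3* and *Itga1*, without overlap between groups. With normexp background correction the dim 5′ probe of *Itgb3* was at 1.87 and its 3′ probe at 1.66. The offset of 50 in that correction exceeds the untreated signals of the 5′ probe, 25.7 and 21.2, and compresses differences of so dim a probe. These values therefore cannot decide whether the 2 probes of *Itgb3* differ. The OGD arrays lay above the untreated arrays in 2 of the 7 genes (*Itga6* and *Itgb1*) and below in 4 (*Itgb3*, *Itga1*, *Lama2* and *Lama3*), and they overlapped in *Itga10*. The same share over all genes with 2 probes was not computed, so that these counts have no background beside them. The probes had opposite signs relative to the 75th percentile in 2 of the 7 genes.

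**Figure D3:**
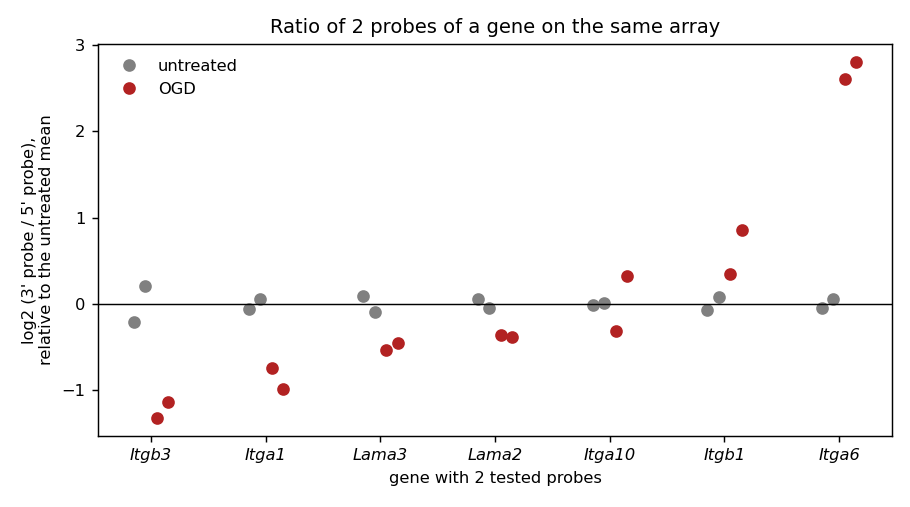
Log2 ratio of the 3′ to the 5′ probe on each array, minus its mean over the untreated arrays, for the 7 genes with 2 tested probes. Grey points are the untreated and red points the OGD arrays. After OGD *Itga6* lay above its untreated arrays by 2.71 on average and *Itgb3* below by 1.23. With normexp background correction, whose offset of 50 compresses dim signals, the log2 fold changes of *Itgb3* were 1.66 (3′ probe) and 1.87 (5′ probe).

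The integrin subunits named with a letter were treated in the same way. *Itgav*, the alpha v subunit shared by many RGD-binding integrins, read 2969 and 3005 without treatment and 2097 and 1887 under OGD. Its log2 fold change was 0.79 ± 0.0752 (adjusted p = 0.00263 with limma), and −0.50 under spike-in scaling. *Itga2b*, the platelet subunit that pairs with beta 3, fell by 0.45 ± 0.101 (adjusted p = 0.0221). *Itgam*, the alpha subunit of the microglial and myeloid receptor CR3, read 3328 and 2726 against 1376 and 1015 and did not pass, at 0.023 ± 0.160 (adjusted p = 0.907), and neither did *Itgal*, at 0.096 ± 0.138. *Itgad*, *Itgae* and *Itgax* were not well above background on any array.

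Of 93 listed genes, these 7 subunits and the genes that work with the receptors and ligands, 85 were tested, 48 higher (56.5%) and 13 lower (15.3%) relative to the 75th percentile beside 37.1% and 27.8% of all genes, a median log2 fold change of 0.44 beside 0.16 over all genes. Under spike-in scaling 5 were higher and 64 lower, beside 809 and 17543 of all 21061 genes. Without untreated replicate 1 the counts were 29 higher and 4 lower, and without untreated replicate 2 they were 27 and 4. The cytoplasmic partners, which bind integrin tails or act with the proteins that do, had 15 higher (45.5%) and 7 lower (21.2%) of 33 tested, near the shares of all genes. They had 2 higher and 28 lower under spike-in scaling, again beside 809 and 17543 of all 21061 genes. *Pxn*, the adaptor paxillin, read 110 and 130 without treatment and 230 and 260 under OGD, at 2.40 ± 0.172 (adjusted p = 0.00156 with limma) and 1.12 under spike-in scaling. *Lims2*, the adaptor PINCH2, was at 1.66 ± 0.100 (adjusted p = 0.00121) and 0.37 under spike-in scaling. *Tln2*, one of the talins that activate integrins through the NPxY motif shown above, fell, from 3116 and 3112 to 392 and 303, at −1.80 ± 0.0979 (adjusted p = 0.00104). The basement membrane partners of laminin had 9 higher (50%) and 4 lower (22.2%) of 18, beside 37.1% and 27.8% of all genes. They had 0 higher and 16 lower under spike-in scaling, beside the same 809 and 17543 of all genes. *Smoc2*, a matricellular protein, was at 1.59 ± 0.171. The collagen IV chains *Col4a3* and *Col4a4*, which share 1 trimer, were at 1.06 ± 0.113 and −1.65 ± 0.118. Under spike-in scaling *Smoc2* was at 0.30, *Col4a3* at −0.23 and *Col4a4* at −2.94.

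Other ligands of integrins had 15 higher (68.2%) and 1 lower (4.55%) of 22, beside 37.1% and 27.8% of all genes. Of the 22, 1 was higher and 12 were lower under spike-in scaling, where 809 of all 21061 genes were higher and 17543 lower. *Tgfb1*, whose latent form is bound by alpha v integrins, read 117 and 120 without treatment and 176 and 169 under OGD, at 1.91 ± 0.0885 (adjusted p = 0.000869 with limma). *Tgfb3*, which codes for a related latent factor, fell, from 21741 and 21544 to 3156 and 2342, at −1.62 ± 0.114 (adjusted p = 0.00153). *Thbs1*, the matricellular protein thrombospondin-1, was at 1.57 ± 0.103. Membrane proteins that sit beside integrins had 8 higher and 0 lower of 8, beside the same shares of all genes, led by *Cav1*, caveolin-1, at 2.25 ± 0.0774 (746 and 756 against 1438 and 1316), *Bsg*, the immunoglobulin-family protein basigin, at 1.79 ± 0.0857, and *Slc3a2*, the CD98 heavy chain that binds beta 1 integrin, at 1.43 ± 0.0794. Under spike-in scaling 2 of these 8 were higher and 4 lower, beside the same 809 and 17543 of all 21061 genes. *Cav1* was then at 0.96, *Bsg* at 0.50 and *Slc3a2* at 0.15, while *Tgfb1* was at 0.62, *Thbs1* at 0.29 and *Tgfb3* at −2.91.

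**Figure D4:**
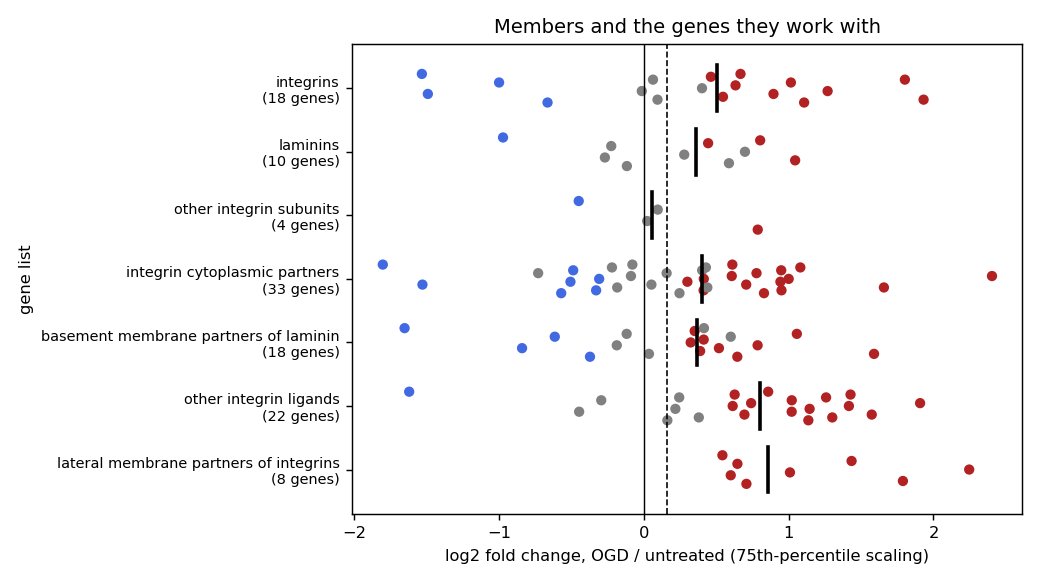
Log2 fold change after OGD, relative to the 75th percentile, of each tested integrin and laminin gene and of the genes they work with, 1 point a gene. Red and blue points passed the adjusted p as higher or lower and grey ones did not, thick bars are list medians, from 0.060 for the other integrin subunits to 0.86 for the lateral membrane partners, and the dashed line is the median of all genes tested, 0.16; spike-in scaling moves all points to the left alike.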

How the data were processed

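AECs were compared between 2 untreated samples and 2 samples after 15 h of OGD, grouped by the labels. Per the methods, the authors amplified total RNA, labeled it with Cy3, hybridized it to Agilent mouse arrays and processed the images with Feature Extraction (11.5.1.1 in the submitters' processing notes). The authors deposited 1 intensity for each spot, its processed signal, corrected for background within an array and not normalized between arrays. The authors' series table holds the same intensity values (largest difference 0). No depth in reads exists for arrays, and their number, 2 a group, limits the precision.

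Control spots and outlier spots were left out, spots of a probe were averaged as log2 of the processed signal, and each array's 75th percentile was subtracted. Probes with a fraction of at least 0.5 of spots well above background on the 2 arrays of either group, and a usable spot in each group, were kept (28254 of 39429). They were tested with lmFit and eBayes of limma 3.58.1 (R 4.3.3), with Benjamini–Hochberg adjustment over all of them. A gene had the value of its brightest kept probe, and was called at an adjusted p under 0.05. A gene that the symbol rule matches is not reported here and enters no count of members. Every other integrin and laminin gene was named, those with a fold over 2 or with probes of opposite sign in full. Of each list of genes that work with them, up to 3 called genes with the largest change were named. The lists of cell type markers did not follow this rule, and only some of their genes were named. The members, the lists, the classes of subunits and the rule were chosen with earlier results of these data known. Python 3.11.15, pandas 2.3.3, numpy 2.4.6 and matplotlib 3.10.9 were used for tables and figures. The fit was tested on simulated data. Probe positions are those of the files (mm9), which do not say whether a probe lies in a coding exon or a UTR, and promoters are from RefSeq (GRCm38.p6), in which the listed genes *Cyr61*, *Ctgf* and *Nov* were matched as *Ccn1*, *Ccn2* and *Ccn3*. Alternatives were the methods' unpaired test, a trended and robust prior, a replicate block, normexp (offset 50), quantile, median, bright-probe and spike-in scaling, other filters, outlier spots kept, the series table, each array left out, the mean over probes and other fold limits. The study's PCR and microscopy were not used here.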

Additional observations from a re-analysis of the deposited data

How the results depend on the processing

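Scaling decided most directions. Under spike-in scaling the counts were 2 higher and 20 lower among the members and 5 and 64 among the 85 tested genes of the other lists (called partner genes here). Of all 21061 genes, 809 were higher and 17543 lower under it. The sign changed in 17 member genes: *Itga2* (−0.82), *Itga3* (−1.19), *Itga5* (−0.019), *Itga6* (−0.74), *Itga7* (−0.39), *Itga8* (−0.89), *Itga11* (−0.18), *Itgb2* (−0.62), *Itgb5* (−1.22), *Itgb7* (−0.65), *Itgb8* (−0.27), *Lama2* (−0.24), *Lama4* (−0.84), *Lamb1* (−0.59), *Lamb2* (−1.01), *Lamc1* (−0.48) and *Lamc3* (−0.70). This follows from the construction of spike-in scaling, which moves all probes alike. With normexp background correction 3 members were lower, and *Itga4* (0.16), *Itgb4* (0.13), *Lama3* (0.17) and *Lamb3* (0.96) changed sign. The same held for *Itga6* (−0.083), *Itgb4* (0.051) and *Itgb5* (−0.40) with quantile normalization, for *Itga3* (−0.058) and *Itgb5* (−0.089) with the percentile over bright probes, and for *Itga6* (−0.81) with the mean over probes. The normexp offset of 50 exceeded the OGD signals of *Itga4* and all signals of *Lamb3*. The cause of the changes of sign was not tested. A fold over 2 left 6 higher and 2 lower members and 20 and 4 partner genes, and a fold over 10 left 0 of each. The methods' unpaired test gave 9 higher and 4 lower members and 8 lower partner genes. With no filter 8 partner genes were lower. With an array left out, and the lone array assumed to vary like the other group, counts were 7 to 15 higher and 3 to 6 lower members and 27 to 51 and 4 to 15 partner genes, and *Itgb4* lay between −0.099 and 0.071. The numbers of the samples were not shown to pair them (correlation of deviations −0.057), and with the replicate block 13 members were higher and 5 lower. No member changed its call or sign with the block, with outlier spots kept, with the series table, with no filter or with median scaling. The slide could not be a block, since all arrays lay on 1 slide. Signals near background, as of *Lamb3* and *Lamc3*, limit those values.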
